A study of Caenorhabditis elegans with 2 samples.

Results

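Of the 1794 peaks of ZTF-4 in this ChIP-seq data set, 203 (11.3%, 95% Wilson interval 9.93 to 12.9) lay at paired protein-coding promoters, which means that the peak summit was within 500 bp of annotated transcript starts of at least 2 different protein-coding genes. A further 662 peaks were within 500 bp of the starts of 1 protein-coding gene, and 929 were farther from any such start, so paired promoters made up 23.5% of the 865 promoter peaks. The 203 peaks fell at 203 distinct gene pairs with 410 genes in all, and 4 of them had another gene beyond the pair within the same distance. Among the peaks, the members were chosen by position alone, and differences in signal between peaks were not used. The peaks themselves are the regions of highest pooled signal, from 60.2 upward.

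Chromatin was immunoprecipitated from whole L2 larvae of both sexes of *Caenorhabditis elegans* strain OP322, with genotype unc-119(ed3) III; wgIs322, in 2 biological replicates that formed a single group. The animals carry an integrated transgene for ZTF-4 fused to green fluorescent protein, so the bound protein is the tagged one made from the transgene, and the whole animal mixes all tissues of the larva. Both replicates come from this strain, and no untagged or input sample was analysed here. The peaks are those of the authors' list of regions past an irreproducible discovery rate (IDR) threshold. With 1 group there is nothing to test between conditions, and neighbouring peaks are not replicates, so the values below are descriptions, and the Wilson intervals cover only the counting of regions.

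In *C. elegans* many neighbouring genes are arranged head to head, so that their upstream regions are the same stretch of DNA and a protein bound there cannot be assigned to either gene by position. Many transcripts are also trans-spliced, which removes the original 5′ end and joins a spliced leader, and an annotated start can then be a splice acceptor downstream of the true site of initiation. ZTF-4 is a zinc finger protein, a class that includes many proteins that bind DNA.

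The DNA between the paired starts is shown for 4 members, to show how short a shared upstream region can be and where the summit sits in it. They are 4 of the 6 highest divergent members on chromosomes II to V and X whose starts were 60 to 300 bp apart with no annotated exon between. Each is the complete interval between the starts on the plus strand, 5′ to 3′, from the RefSeq copy of WBcel235 (ce11). Capitals mark, on either strand, the word GAGAGA, the word ACGCAG, the word CGTCTC and the word GAGCGC. The intervals are chrIV:8432894-8433037 for T26A8.4/pdtf-1, chrV:10965540-10965718 for ctf-4/eef-1G, chrV:5684590-5684872 for F25B4.4/hmgs-1 and chrIII:13466343-13466577 for cdk-5/kel-3.
T26A8.4/pdtf-1: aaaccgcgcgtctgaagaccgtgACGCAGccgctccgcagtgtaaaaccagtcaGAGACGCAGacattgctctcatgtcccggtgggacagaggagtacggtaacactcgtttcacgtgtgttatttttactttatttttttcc
ctf-4/eef-1G: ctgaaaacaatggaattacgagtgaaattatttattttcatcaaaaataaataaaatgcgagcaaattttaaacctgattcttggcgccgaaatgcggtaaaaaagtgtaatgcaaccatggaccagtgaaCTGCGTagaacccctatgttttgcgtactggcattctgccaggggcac
F25B4.4/hmgs-1: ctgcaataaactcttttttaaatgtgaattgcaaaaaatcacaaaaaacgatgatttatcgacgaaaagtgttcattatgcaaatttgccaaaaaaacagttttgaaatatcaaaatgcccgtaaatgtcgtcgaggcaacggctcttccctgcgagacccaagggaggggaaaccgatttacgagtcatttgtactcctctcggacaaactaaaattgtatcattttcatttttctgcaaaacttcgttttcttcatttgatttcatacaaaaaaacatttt
cdk-5/kel-3: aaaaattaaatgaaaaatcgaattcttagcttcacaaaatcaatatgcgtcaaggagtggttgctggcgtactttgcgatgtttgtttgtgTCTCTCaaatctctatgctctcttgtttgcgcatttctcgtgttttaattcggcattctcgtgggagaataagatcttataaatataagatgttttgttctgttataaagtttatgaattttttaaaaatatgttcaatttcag

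The summit was at base 91 of 144 between T26A8.4 and pdtf-1, where ACGCAG began at bases 24 and 58 and overlapped CGTCTC, read on the minus strand, at the second place. In the ctf-4/eef-1G interval the summit was at base 149 of 179, close to the start of eef-1G, which encodes an elongation factor subunit, and ACGCAG lay at bases 132 to 137 on the minus strand. The hmgs-1 interval, upstream of the gene for HMG-CoA synthase, held none of the 4 words, with its summit at base 180 of 283. Between cdk-5, a cyclin-dependent kinase gene, and kel-3, the summit was at base 63 of 235 and GAGAGA lay at bases 92 to 97 on the minus strand. The letters TTNCAG, as at the end of an intron, stood directly before the annotated starts of ctf-4, hmgs-1 and kel-3, and before neither start at T26A8.4/pdtf-1.

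Nearly all pairs were divergent, with the genes running away from each other and the minus-strand start on the left. Of the 203 members, 187 were divergent (92.1%, 87.6 to 95.1) and 11 were tandem, with both genes on the same strand (5.42%). The remaining 5 (2.46%) had overlapping starts, where genes on opposite strands overlap at their 5′ ends and otherwise run away from each other. Among the 555 other regions of the pooled list with paired starts, which were ranked below the peaks, 413 were divergent (74.4%, 70.6 to 77.9), 118 tandem (21.3%) and 24 overlapping (4.32%). Whether the difference in orientation exceeds what dependence between neighbouring regions gives was not tested.

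The 187 divergent pairs had starts 12 to 900 bp apart, with a median of 403 bp and quartiles of 283 and 530 bp. Divergent pairs at lower-ranked regions had a median spacing of 387 bp, with quartiles of 251 and 551 bp, so the quartile ranges overlapped. The closest starts belonged to F32D8.14 and F32D8.5, 12 bp apart (signal 91.6), and to F25H9.6 and F25H9.7, 15 bp apart (79.6). The most distant belonged to sqv-3, which encodes a galactosyltransferase, and vha-1, which encodes a vacuolar ATPase subunit, 900 bp apart (96.4), and to col-38 and rpl-5, 839 bp apart (107). A spacing above 1000 bp is impossible under the rule, since a summit must lie within 500 bp of both starts. The spacing of 11 tandem pairs had a median of 102 bp, with a range of 0 to 641 bp, and that of the 5 overlapping pairs 74 bp, with a range of 51 to 125 bp.

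The summit lay between the starts at 167 of 187 divergent members (89.3%, 84.1 to 93.0), against 329 of 413 lower-ranked divergent regions (79.7%, 75.5 to 83.3). In the replicates' own lists it lay between them at 165 in replicate 1 and 169 in replicate 2, and at 158 (84.5%) it did so in the pooled list and both replicates. The summits of the replicates were a median of 9 bp (replicate 1) and 11 bp (replicate 2) from the pooled summit over all 203 members. The share was higher at wider spacing in both sets. It was 40% of 20 members with starts under 200 bp apart, 90.4% of 73 at 200 to 399 bp, 98.4% of 62 at 400 to 599 bp and 100% of 32 from 600 bp, against 37.9%, 73.0%, 97.5% and 100% in lower-ranked regions. Where starts are more than 500 bp apart, a summit within 500 bp of both must lie between them. The rule thus fixes the share at 100% from 600 bp, and it raises the share at 400 to 599 bp and over all spacings.

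The distance from summit to nearer start had a median of 121 bp and to the farther start 281 bp at divergent members. The summit was a median of 63 bp from the midpoint of the starts (quartiles 25 and 112 bp), against 79 bp in the lower-ranked divergent regions. It was within 50 bp of the midpoint at 79 members (42.2%, 35.4 to 49.4), against 143 lower-ranked regions (34.6%, 30.2 to 39.3). Within 100 bp the counts were 132 members (70.6%) and 253 regions (61.3%). The medians by spacing class were 49.5, 63, 60.3 and 69.8 bp at members, from closest to widest, against 90.5, 69.5, 99.3 and 59.5 bp in the lower-ranked regions. The rule also limits the distance to the midpoint in both sets, more tightly at wider spacing. At single-gene promoter peaks the summit was a median of 183 bp upstream of the nearest start, and it was upstream of that start at 572 of 662 (86.4%). At members it was upstream of the nearest start of both genes at 174 of 203 (85.7%). A gene can have another start farther upstream, so such a summit can lie inside the gene, as at hsp-90 and cox-6B.

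**Figure D1:**
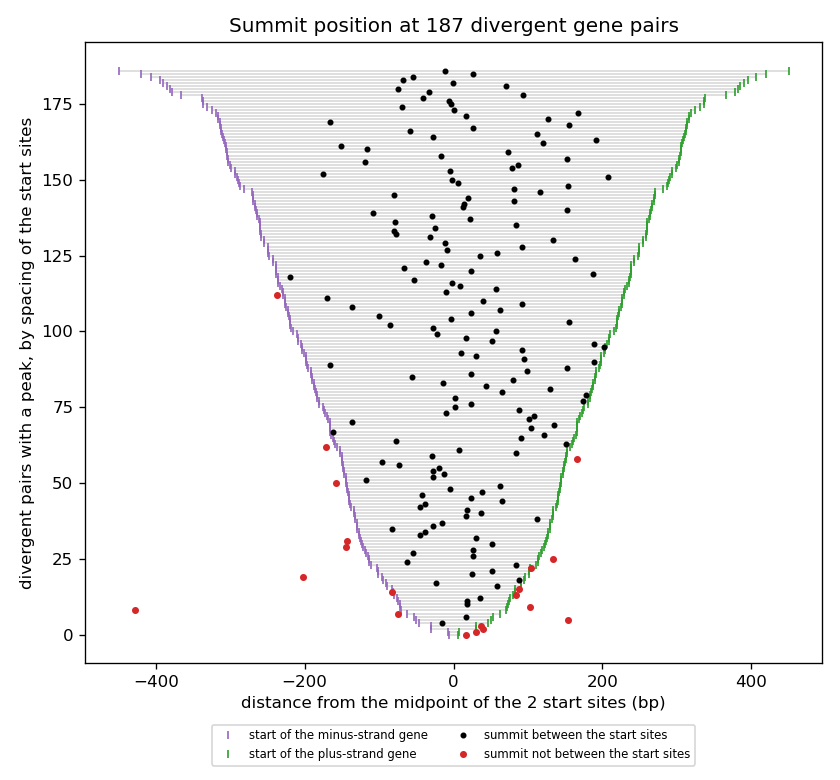
Positions of the summit at the 187 divergent members, ordered by the spacing of their starts from the bottom up. The horizontal axis is the distance from the midpoint of the starts in bp, the purple and green ticks are the starts of the minus- and plus-strand genes, and each point is 1 summit; 167 black points lie between the starts and 20 red ones do not.

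The 20 divergent members whose summit was not between the starts were mostly at close pairs, and their summits lay a median of 14.5 bp past the nearer start (range 1 to 357 bp). ceh-38/malt-1, a homeobox gene and the paracaspase gene, had its summit 20 bp inside ceh-38 with signals of 215 (pooled), 103 (replicate 1) and 110 (replicate 2). kbp-4/rab-18, a kinetochore gene and a Rab GTPase gene, had its summit 11 bp inside rab-18 with signals of 206, 89.4 and 113. At rps-26/tmem-107 the summit was 9 bp inside tmem-107 and 466 bp upstream of rps-26.

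Signal is the authors' own value for each region in the pooled list, and the values of the replicates are on their own scales. Members ran from 60.2 to 630, with a median of 90.8 (quartiles 73.3 and 136), against a median of 83.4 (69.3 to 116) at single-gene promoter peaks, 81.7 at peaks farther from any start and 83.0 at all peaks. The pooled difference came with replicate 2, where the medians were 53.8 at members, 47.4 at single-gene peaks and 47.5 over all peaks. In replicate 1 they were 40.5, 40.3 and 40.6. Of the highest 100 peaks, 22 were members, and of the highest 100 promoter peaks, 33.

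All 203 members overlapped a region in both replicates' lists, whose 30000 regions each are mostly background. In each replicate list, taking as many of the highest regions as there are peaks, 144 members (70.9%, 64.3 to 76.7) were in both, against 419 of 662 single-gene peaks (63.3%, 59.6 to 66.9) and 63.4% of all peaks, and 7 members were in neither. Across members the replicates' signals had a Spearman correlation of 0.67 and a Pearson correlation of 0.91 (n = 203 regions), against 0.54 and 0.87 at single-gene peaks (n = 657). These describe regions that share the same libraries. The peaks are the regions of highest pooled signal, so the data of both replicates went into their choice.

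**Figure D2:**
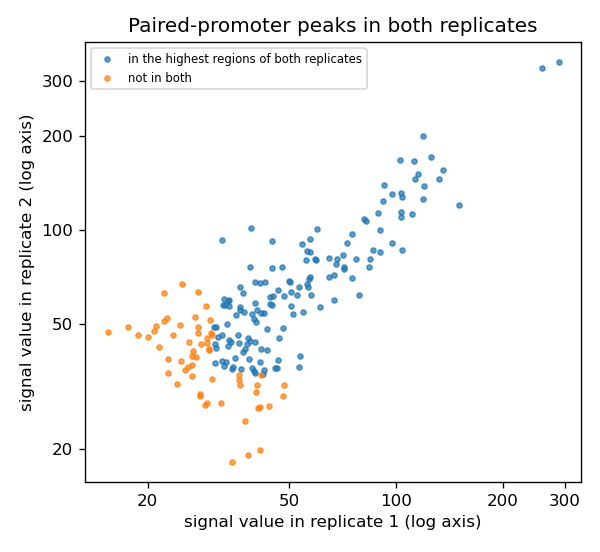
Authors' signal value of the 203 members in replicate 1 (horizontal) and replicate 2 (vertical), on log axes. Blue points are the 144 members among the highest regions of both replicates and orange points the others; the 2 members with the highest pooled signal are separate at the top right.

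The highest member stood between Y17G9B.5 and rpl-20, a large ribosomal subunit gene, at chrIV:4749954-4750204, with signals of 630 (pooled), 288 (replicate 1) and 343 (replicate 2). Its summit was 174 bp upstream of Y17G9B.5 (chrIV:4750240-4751491, plus strand) and 288 bp upstream of rpl-20 (chrIV:4749123-4749778, minus strand). The next, at K11H12.8/rpl-15, had signals of 596, 258 and 329 and a summit 352 bp upstream of rpl-15 and 462 bp upstream of K11H12.8. No other member exceeded 324. That value was at lin-54/rpl-12, where lin-54 encodes the DNA-binding subunit of the DREAM complex, and the replicates had 120 and 200.

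Members 4 to 8 had pooled signals from 277 to 305. hsp-110/rpn-3, a chaperone gene and a gene of the proteasome's regulatory particle, had 305 with 125 in replicate 1 and 171 in replicate 2. hsr-9/rps-19, a gene of the DNA damage response and a small ribosomal subunit gene, had 289 with 136 and 156. cct-1/mig-5, a chaperonin subunit gene and a Dishevelled gene of Wnt signalling, had 281 with 132 and 145. At C47E8.4/hsp-90, the gene for the Hsp90 chaperone, replicate 1 was higher than replicate 2 (150 and 121, pooled 279). Its summit was 378 bp upstream of the nearest hsp-90 start but inside the annotated span of that gene (chrV:14684918-14688545). The fifth of these, rps-12/ska-3, a small ribosomal subunit gene and a kinetochore gene, had 277 with 113 and 166.

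Members 9 to 19 covered a range of 218 to 264. drr-2/set-16, a translation factor homolog and a histone methyltransferase of the MLL family, had signals of 264 (pooled), 115 (replicate 1) and 151 (replicate 2), and its summit was near the middle, 163 and 183 bp upstream of the genes. ekl-4/rps-20 had 258, gpap-1/scpr-1 255, and htz-1/wapl-1, a variant histone gene and a cohesin release factor gene, 237. F25H2.6/ndk-1, with a nucleoside diphosphate kinase gene, had 234. Y55F3AR.2/cct-8 had 232, and cap-2/gmps-1, an actin capping protein gene and GMP synthase, 228. Y71H2AM.20/cox-6B, with a cytochrome c oxidase subunit gene, had 222, and lin-53/nra-2, with a histone-binding protein gene, 218. The annotated span of cox-6B (chrIII:2699663-2786859) holds both Y71H2AM.20 and the summit of that member. The tandem members of this range, C53H9.4/egl-30 and dld-1/nspg-9, are described below.

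Members 20 to 25 ranged from 188 to 216. They were atp-1/mcrs-1, with the gene for an ATP synthase subunit (216), ceh-38/malt-1, kbp-4/rab-18, F01G4.6/pfd-1, with a prefoldin gene (193), the tandem member Y71G12A.5/tub-2 (191), and T26A8.4/pdtf-1 (188). At atp-1/mcrs-1 the summit was 7 bp upstream of atp-1 and 183 bp upstream of mcrs-1, and it was between the starts in replicate 1 but not in replicate 2. The lowest member of all was aka-1/ubc-6, with signals of 60.2 (pooled), 17.6 (replicate 1) and 48.9 (replicate 2).

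By orientation the median signal was 91.4 at divergent members, 150 at tandem members (range 67.1 to 261) and 66.0 at the 5 overlapping members (60.3 to 70.8), against 83.4 at single-gene peaks. Among divergent members the medians by spacing class were 83.9, 85.9, 94.9 and 92.6, from closest to widest, and spacing and signal had a Spearman correlation of 0.09 (n = 187 pairs). Signal thus varied little with spacing. The highest of the closest class were atp-1/mcrs-1, kbp-4/rab-18 and T26A8.4/pdtf-1, those of 200 to 399 bp lin-54/rpl-12, rps-12/ska-3 and drr-2/set-16, those of 400 to 599 bp Y17G9B.5/rpl-20, hsp-110/rpn-3 and hsr-9/rps-19, and those from 600 bp K11H12.8/rpl-15, C47E8.4/hsp-90 and Y55F3AR.2/cct-8.

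**Figure D3:**
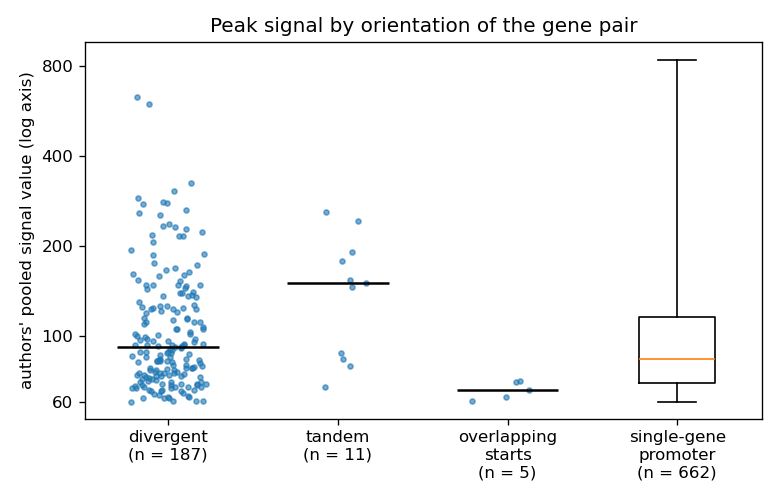
Authors' pooled signal value (log axis) of each member by orientation of its gene pair, with a horizontal line at the median, beside a box plot of the 662 single-gene promoter peaks (box, quartiles; whiskers, full range). Medians are 91.4, 150, 66.0 and 83.4 from left to right.

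In 6 of the 11 tandem pairs 1 gene lay inside the other, and 5 pairs had a gene of at most 300 bp. C53H9.4 spans 93 bp within egl-30, the gene for a G protein alpha subunit, and that member had signals of 261 (pooled), 113 (replicate 1) and 146 (replicate 2). Y71G12A.5 spans 30 bp within tub-2 (signal 191), K11D12.14 51 bp within pqn-51 (154), Y54F10AM.15 30 bp within rbc-2 (150), and T04C10.11 162 bp within atf-4, a gene for a bZIP transcription factor (83.2). Apart from Y54F10AM.15/rbc-2, where ndua-8 also starts within 500 bp of the summit, these members count as paired only through such an annotation.

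The other tandem members had separate or overlapping genes, apart from F53E2.2/unc-60, where F53E2.2 lies inside unc-60. dld-1/nspg-9, with the gene for dihydrolipoamide dehydrogenase, had signals of 242, 119 and 125, and its summit was 263 bp upstream of dld-1 and 294 bp downstream of a start of nspg-9, past the end of that gene (chrIV:14456900-14464098). C47E8.11/gasr-8 had a pooled signal of 178, C33H5.13/rsp-6, with an SR splicing factor gene, 146, Y62E10A.23/mdt-9 87.5, F53E2.2/unc-60, whose starts are at the same base, 78.9, and atg-3/rbm-39 67.1. At 7 of the 11 both starts were downstream of the summit, and 10 of 11 were among the highest regions of both replicates. The overlapping members were elmd-1/hecw-1 (70.8), D2005.3/D2005.4 (69.8), F42A10.5/abcf-3 (66.0), Y50D4A.4/wrb-1 (62.4) and nhr-101/pms-2 (60.3), all in the lower part of the list.

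The number of annotated pairs available was counted on the whole annotation. It holds 1861 neighbouring divergent pairs of protein-coding starts under 1000 bp apart, of which 578 (31.1%) had any region of the pooled list within 500 bp of both genes and 195 (10.5%, 9.17 to 12.0) had a peak. Pairs were counted here from all starts near a summit and not only from its nearest pair, so their number differs from the 187 divergent members. A peak was present at 24 of 276 pairs under 200 bp apart (8.70%), 79 of 499 at 200 to 399 bp (15.8%), 60 of 428 at 400 to 599 bp (14.0%) and 32 of 658 from 600 bp (4.86%). Given any region, the shares were 27.3%, 37.6%, 34.9% and 29.6%. The widest pairs leave the least room for a summit within 500 bp of both starts.

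Regions of the pooled list with paired starts were more often peaks than other regions. Of 758 such regions, 203 were peaks (26.8%, 23.8 to 30.0), against 662 of 7667 regions near 1 gene (8.63%), 929 of 21575 near none (4.31%) and 5.98% of all 30000. The share was 31.2% (27.6 to 35.0) for 600 regions at divergent pairs, 8.53% for 129 at tandem pairs and 17.2% for 29 at overlapping pairs. A region at a divergent pair has 2 upstream sides, and whether that alone gives the higher share was not tested.

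**Figure D4:**
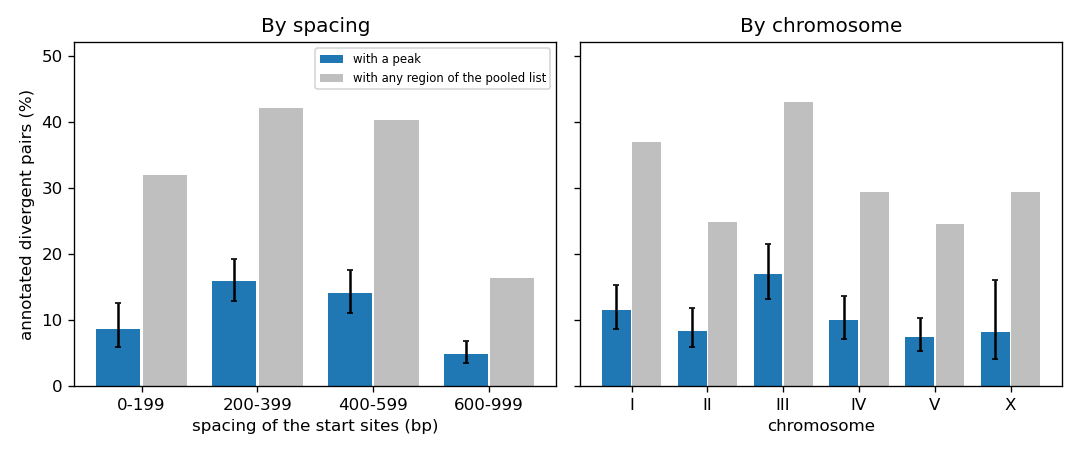
Share of the annotation's neighbouring divergent pairs under 1000 bp apart with a peak (blue, with 95% Wilson intervals) and with any region of the pooled list (grey), by spacing of the starts in bp (left) and by chromosome (right). Peaks were at 15.8% of pairs spaced 200 to 399 bp and 4.86% of those from 600 bp.

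Members were spread unevenly over the chromosomes. They made up 42 of 302 peaks on chromosome I (13.9%), 28 of 289 on II (9.69%), 53 of 352 on III (15.1%), 36 of 254 on IV (14.2%), 36 of 254 on V (14.2%) and 8 of 343 on X (2.33%, 1.19 to 4.53), against 195 of 1451 on the autosomes together (13.4%, 11.8 to 15.3). The X chromosome has fewer annotated divergent pairs, and whether that gives its low share of members was not tested. It holds 85 of the annotated divergent pairs, against 312 to 441 on each autosome, and 7 of the 85 had a peak (8.24%, 4.05 to 16.0), against 188 of 1776 on the autosomes (10.6%, 9.24 to 12.1). The 8 members on X were C27C12.1/C27C12.4 (pooled signal 154), C28G1.2/sec-15 (123), D1005.10/dhs-25 (115), ile-2/trap-2 (93.1), F08G12.3/snrp-40.1 (90.8), T04C10.11/atf-4 (83.2), dnj-14/glit-1 (78.1) and asg-2/glr-6 (74.1).

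**Figure D5:**
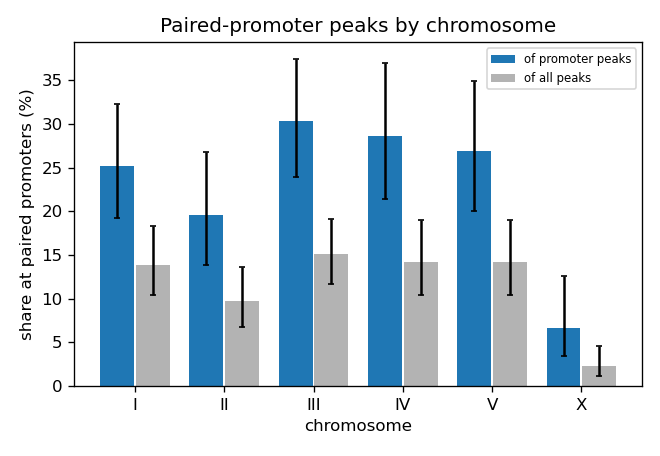
Share of promoter peaks (blue) and of all peaks (grey) that lie at paired promoters, by chromosome, with 95% Wilson intervals. The X chromosome has 6.67% of promoter peaks and 2.33% of all peaks, the lowest of the 6.

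Ribosomal protein genes made up a larger share of the genes at members than of those at single-gene peaks. By symbol, the annotation holds 50 large-subunit and 32 small-subunit genes among 19973 genes. A cytosolic ribosomal protein gene, as listed by symbol, stood at 26 of the 203 (12.8%). For the large subunit there were 16 members (7.88%), against 14 of 662 single-gene peaks (2.11%), and for the small subunit 12 (5.91%) against 7 (1.06%). A member holds at least 2 genes, so the share of genes was counted too. Large-subunit genes were 3.90% of the 410 genes at members, against 2.22% of the 632 genes at single-gene peaks, and small-subunit genes 2.93% against 1.11%. Median signal was 105 at the large-subunit members and 136 at the small-subunit members, against 90.8 over all members. Highest of the large subunit were rpl-20, rpl-15, rpl-12 and rpl-22, at ify-1/rpl-22 (160) beside the securin gene. Highest of the small subunit were rps-19, rps-12, rps-20 and rps-15, the last at F36A2.9/rps-15 with a pooled signal of 176 and a summit 390 and 391 bp upstream of the starts.

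The ribosomal protein gene was not always the nearer of the pair. At divergent members the summit was nearer to the large-subunit gene in 7 of 16, with median distances of 311 bp upstream of it and 286 bp upstream of its partner, and nearer to the small-subunit gene in 4 of 12, with 283 and 168 bp. Translation factor genes of the symbol list, 41 in the annotation, had 5 members (1.22% of genes at members, against 0.63% at single-gene peaks). They were led by ctf-4/eef-1G (187), clsp-1/eef-2 (173), eef-1A.1/rfc-4 (153) and Y47H9C.8/eif-2Bbeta (93.4). At these 5 the summit was a median of 31 bp upstream of the factor gene and 154 bp upstream of its partner. The list leaves out drr-2, at drr-2/set-16 (264), where the summit was 163 bp upstream of drr-2. The partners clsp-1, ctf-4 and rfc-4 act in DNA replication. With 5 members the medians rest on single peaks.

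Chaperone genes by symbol (hsp, cct, dnj, pfd or daf-21) were at 13 members (6.40%), against 6 single-gene peaks (0.91%). They made up 3.41% of the genes at members and 0.95% of those at single-gene peaks, and the list matches 65 of the 19973 annotated genes. Genes with other symbols were not counted, such as enpl-1 at enpl-1/imp-2, with its summit 17 bp upstream of enpl-1. At 12 of these members only 1 gene of the pair was in the chaperone list, and the summit was nearer to the other gene in all 12. It was a median of 313 bp upstream of the listed gene and 193 bp upstream of the partner. Median signal at the 13 was 97.6. The highest were hsp-110/rpn-3, cct-1/mig-5, C47E8.4/hsp-90 and Y55F3AR.2/cct-8. The remaining one, hsp-16.2/hsp-16.41, has small heat shock genes on both sides, with signals of 88.1 (pooled), 27.7 (replicate 1) and 63.4 (replicate 2). The hsp-16 genes occur in near-identical copies, so reads could be shared between them. The same holds for F44E5.4/F44E5.5, a pair outside the symbol list, which had 124, 32.3 and 92.7.

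The other groups with at least 4 members were smaller, and their share of the genes at members is given against that at single-gene peaks. All groups go by symbol, so genes with other symbols, such as ndub-8 at cup-14/ndub-8 (120), were not counted. Of the 19973 annotated genes, the lists match 46 respiratory chain, 89 secretory transport and 50 splicing genes. They also match 33 proteasome, 57 Mediator and general transcription and 70 mitochondrial ribosome genes. Respiratory chain genes of the list were at 8 members (1.95% against 1.42% of genes), led by cox-6B, atp-1, atp-2 (at C34E10.10/atp-2, 111) and nuo-1 (at nuo-1/rpl-36.A, 85.3). Secretory transport genes were at 7 (1.71% against 1.90%), led by rab-18, sec-61.B (at sec-61.B/trap-3, 139), sec-15 and vps-51 (at lin-35/vps-51, 121), where lin-35 is the retinoblastoma homolog. Splicing genes were at 6 (1.71% against 0.95%), led by rsp-6, rsp-1/rsp-2 (111), snr-1/snx-13 (100.8) and prp-40 (at clu-1/prp-40, 82.4).

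Proteasome genes were at 5 members (1.22% of genes at members, against 0.32% at single-gene peaks), led by rpn-3, rpt-2 (at aps-1/rpt-2, 100.97), pbs-1 (at K08D12.3/pbs-1, 83.1) and pas-4 (at pas-4/rpb-3, 72.9). Mediator and general transcription genes were at 5 (1.22% against 0.63%), led by mdt-26 (at ift-43/mdt-26, 109), taf-11.3 (at taf-11.3/urm-1, 93.8), mdt-9 (87.5) and mdt-18 (at mdt-18/uri-1, 74.7). Mitochondrial ribosome genes were at 4 (0.98% against 0.47%), namely mrps-7 (at Y57G11C.3/mrps-7, 123), mrpl-49 (at mrpl-49/rpl-28, 103), mrps-17 (at mrps-17/txdc-9, 75.4) and mrpl-45 (at Y119D3B.12/mrpl-45, 71.7). Nuclear receptor genes were at 3 members (1.48%), against 13 single-gene peaks (1.96%), and collagen genes at 1 (0.49%), against 2 (0.30%). Chemoreceptor names matched at 3 members (1.48%), against 3 single-gene peaks (0.45%), which is 0.98% of the genes at members against 0.47%. In the annotation of 19973 genes, the lists match 269 nuclear receptor, 185 collagen and 1364 chemoreceptor names. Neuropeptide genes were at 0 of both, and the zinc finger genes named ztf at 0 members, against 2 single-gene peaks (0.30%). Histone and tRNA synthetase genes were at 1 member each and vacuolar ATPase genes at 2. These counts are too few to rank the groups.

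A gene of at least 1 list stood at 83 of 203 members (40.9%), and list genes stood on both sides at 13 (6.40%). Beyond hsp-110/rpn-3, rsp-1/rsp-2, snr-1/snx-13, hsp-16.2/hsp-16.41, nuo-1/rpl-36.A, pas-4/rpb-3, mrpl-49/rpl-28 and col-38/rpl-5, these included rpl-36/rps-14, rpl-24.1/rps-10, his-67/his-68 and dnj-19/nhr-47. rpl-36/rps-14 and rpl-24.1/rps-10 pair a gene of each ribosomal subunit, with signals of 124 (47.7 in replicate 1 and 76.3 in replicate 2) and 87.5 (37.3 and 54.9). rsp-1/rsp-2 pairs genes of the same splicing factor family, with 111 (38.8 and 75.9). At the histone genes his-67/his-68 (99.3), which are members of a multicopy family, reads could be shared with other copies.

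The base composition at summits was alike in paired and single-gene promoters. Within 50 bp of the summit the median GC content was 47.5% at members, 46.5% at single-gene peaks and 44.6% at peaks far from starts, against 36.6% at lower-ranked paired regions and 32.7% at all lower-ranked regions. On either strand of this window, GAGCGC was present at 44 members (21.7%, 16.6 to 27.8), against 13.1% of single-gene peaks, 5.27% of peaks far from starts and 8.29% of lower-ranked paired regions. It was at lin-54/rpl-12, cct-1/mig-5, C47E8.4/hsp-90, rps-12/ska-3, gpap-1/scpr-1 and F25H2.6/ndk-1, the highest members with the word.

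The other words differed less between members and single-gene peaks. GAGAGA was present at 19.7% of members, against 24.6% of single-gene peaks, 30.0% of peaks far from starts and 9.73% of lower-ranked paired regions. ACGCAG was present at 18.2%, against 16.9%, 12.9% and 3.78%, and CGTCTC at 17.7%, against 18.4%, 15.2% and 6.31%. The last 2 overlap in the joined word GAGACGCAG, present at 18 members (8.87%), against 8.61%, 6.78% and 0.90%. At least 1 of the 4 was present at 111 members (54.7%), against 45.9% and 43.1% of other peaks and 24.1% of lower-ranked paired regions. The 4 words were chosen with earlier results of these data known, so their higher share at peaks is not independent of that choice. GC content also differed between peaks and lower-ranked regions, and its part in these shares was not tested. TATAAA was at 8 members (3.94%), against 6.95%, 6.67% and 12.6%.

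At members the words were a median of 15 bp from the summit for ACGCAG and GAGCGC, 20 bp for GAGAGA and 28 bp for CGTCTC. The window ends at 50 bp, which limits these distances, and whether they are shorter than at random placement was not tested. Median signal was 93.3 at members with GAGCGC and 88.1 at those without, 97.6 and 86.3 for ACGCAG, 96.9 and 87.5 for CGTCTC, and 84.3 and 92.3 for GAGAGA. In replicate 1 the medians with and without a word were within 2 units for each of the 4 words. A word in this window is a match of letters, and no more.

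Annotated starts that follow a splice acceptor were frequent. TTNCAG lay directly before 150 of the 406 starts of member pairs (36.9%, 32.4 to 41.7), against 231 of 662 at single-gene peaks (34.9%) and 5307 of all 29784 annotated protein-coding starts (17.8%). It lay before 27.6% of the nearer and 46.3% of the farther starts. The summit was a median of 248 bp upstream of divergent starts with the acceptor letters (n = 144) and 168 bp upstream of those without (n = 230). Divergent pairs with the letters at neither, 1 or both starts had median spacings of 332, 429 and 518 bp (n = 67, 96 and 24), so the spacing of annotated starts moves with such starts. Their part in the distances given above was not tested.

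A few members lay within 20 bp of the 500 bp limit. The 6 nearest inside it, with the second gene 480 to 500 bp from the summit, were orc-5/cyb-1 (77.7), frg-1/ubq-2 (90.0), unc-60/F53E2.2 (78.9), ash-2/Y17G7B.20 (126), tceb-3/gskl-1 (65.5) and C06A5.3/simr-1 (159). The 6 nearest outside it, at 509 to 520 bp, were dcn-1/evl-14 (63.8), epc-1/Y111B2A.12 (114), szy-20/C18E9.5 (77.0), ant-1.1/T27E9.2 (162), tsr-2/set-26 (73.2) and sas-5/piit-1 (77.9). Their median signals were 84.4 inside and 77.5 outside.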

How the data were processed

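The study measured DNA bound by GFP-tagged ZTF-4 in 2 replicates by ChIP-seq. The authors deposited lists of regions with a signal value for each, per replicate, from the pooled replicates and past an IDR threshold, per the file listing deposited with the samples. Not given in the sources used here are the scaling of that signal, the aligner, the peak caller and the threshold itself. The lists analysed hold no read counts, so depth is unknown. The ce11 lists were used and the ce10 lists were not.

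A summit is the region start plus the deposited offset. Starts came from Ensembl release 115 of WBcel235. The pair is the 2 genes with starts nearest to the summit. Distances upstream of a gene are from its start nearest to the summit. Divergent means opposite strands with the minus-strand start on the left. Regions matched between lists with at least 1 bp of overlap. Shares carry 95% Wilson intervals. Sequence words were sought on both strands within 50 bp of the summit. Gene groups were 18 lists by symbol. Named were the genes of the 25 highest members, the 3 highest of each orientation and spacing class, members with list genes on both sides, the 4 highest of each group with at least 4 members, the extremes of spacing and the members nearest the 500 bp limit. The members, lists and words were chosen with earlier results of these data known. The joined word, the acceptor letters, the spans of tandem partners, the midpoint by spacing, word positions, the count over both ribosomal subunits, shares of genes in each list and the F44E5.4/F44E5.5 pair were added after seeing the data. A sequence and a gene that these rules select are not reported here. The pair finder was tested on simulated data. Tools were Python 3.11.15, pandas 2.3.3, numpy 2.4.6, scipy 1.17.1, statsmodels 0.14.6 and matplotlib 3.10.9.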

Additional observations from a re-analysis of the deposited data

How the results depend on the processing

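Of 54 alternatives (6 results under 9 settings), 24 changed by no more than the standard deviation between the replicates' own lists, or 1.5 times for the number of members, and 30 changed by more. No direction was at stake, since there was no contrast. A window of 250 bp gave 82 members, 91.5% divergent, a median spacing of 268 bp, 84% with the summit between the starts and 7.96% of annotated pairs with a peak. A window of 1000 bp gave 348 members, 76.4% divergent, 498 bp and 88.3%. With each gene's outermost start alone, 93.3% were divergent and 87.8% had the summit between the starts. The 897 peaks of highest signal gave 119 members, 92.4%, 438 bp, 91.8%, a median signal of 124 and 6.07% of annotated pairs. Members among the highest regions of both replicates gave 93.1%, 419 bp, 90.3%, 111 and 7.36%. Counting every pair near a summit gave 91.5% divergent. Taking each replicate's own highest regions in place of the peaks, which leaves out the other replicate, gave 180 to 210 members, 90.6 to 91.0% divergent, 396 to 408 bp, 91.4 to 92.7% between the starts, a median signal of 42.7 to 52.8 on the replicates' own scales and 9.03 to 10.6% of annotated pairs.

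No paired analysis was possible because there was a single group. Both replicates are of 1 strain and 1 transgene, no untagged sample was used, and without read counts no interval covers the counting of reads.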

Other observations

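Starts of genes that encode no protein lay within 500 bp of the summit at 41 of 203 members (20.2%), at 32 of them an unclassified noncoding RNA gene (15.8% of members, against 12.8% of single-gene peaks). Small nucleolar RNA genes, whose products guide the modification of other RNAs, were near 5 members (2.46%), against 21 single-gene peaks (3.17%). Those at members included F54E7.10, 254 bp from the summit at rps-12/ska-3, F39B2.14, 52 bp away at rps-26/tmem-107, and C41C4.11, 32 bp away at C41C4.9/chst-1. The spliced leader RNA gene sls-2.8 was 17 bp from the summit at Y75B8A.23/tim-1, where the pooled signal was 162, with 60.1 in replicate 1 and 100.7 in replicate 2. The microRNA gene cel-mir-5549 was 14 bp away at eef-1A.1/rfc-4. These starts were not used to choose the members.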
